A study of Mus musculus with 2 samples.

Results

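The proteasome subunit genes were examined in the RNA of 4T1 cells, a mouse mammary carcinoma line that spreads to the lung, treated during 48 h with potassium oxalate or, as the control, with PBS. The members were the protein-coding genes of GENCODE M21 whose symbols start with Psma to Psmg and a number, without Psmb8 and Psmb9, and all 48 of them were among the 21911 genes listed. The cells of both conditions came from the same line and carried no stated genetic change. The oxalate dose is given as 20 mM in the treatment protocol and as 20 µM in the sample characteristics. Each condition had 1 library, so no difference could be tested and none has a replicate check. Levels are FPKM, in which the fragments of a gene are divided by its length and by the size of the library, and can be set side by side between genes. Differences are log2((oxalate + 1)/(PBS + 1)), in which the added 1 makes the differences of weakly expressed genes smaller. They were taken where the mean FPKM was 1 or more, which held for 10267 genes and for 46 of the 48 members. The remaining members, Psma8 and Psmb11, were listed at 0 in both libraries. In the bulk RNA of a culture, fewer cells expressing a gene and less RNA per cell cannot be told apart.

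The proteasome degrades proteins marked with ubiquitin. Its barrel-shaped core is built of outer alpha rings, which form the gate, and inner beta rings, which hold the cutting sites. A regulatory particle docks on the gate. Its base unfolds substrates with a ring of ATPases, and its lid removes the ubiquitin chain. Dedicated chaperones put the core and the base together, and other caps can take the place of the regulatory particle. Subunit genes are known to be induced together by the transcription factor NFE2L1 when proteasome activity is short, and some subunits are exchanged under interferon-gamma. Tumor cells depend on the complex to clear damaged and short-lived proteins.

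The name rule also took in Psmc3ip, a factor of meiotic recombination named for its binding to an ATPase subunit, which is no part of the proteasome. It had 15.13 FPKM with PBS and 15.67 with oxalate. All epithelial markers (8 of 8) were expressed in both libraries, with summed levels of 2424 FPKM for PBS and 2501 for oxalate, and all 6 leukocyte markers were listed at 0. Of 5 fibroblast and endothelial markers, Col1a1 (143.48 and 144.61 FPKM) and Pdgfra (1.88 and 1.93) passed the filter. The depth estimated from the steps between low FPKM values was about 56800000 reads for PBS and 36400000 for oxalate.

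The proteasome genes differed little between the PBS and oxalate libraries. Of the 46 expressed members, 16 were higher and 30 lower with oxalate, against 50.6% higher and 49% lower among all genes compared. Their median log2 ratio was -0.015, beside 0.0031 for all genes. A difference of at least 1.2-fold was seen in 2 members, Psmf1 and Psmg4, both lower with oxalate, which is 4.35% of the members. Among all genes 9.94% were past 1.2-fold, 4.75% on the higher and 5.19% on the lower side. No member reached 1.5-fold, against 1.99% of all genes, or 2-fold, against 0.653%. A difference of less than 1.1-fold, a limit set with the values in view, was seen in 43 of 46 members, against 69.5% of all genes. Highly expressed genes differed less in general. A mean FPKM of 50, a filter added in the same way, was reached by 34 of the 46 members but by 2109 of all 10267 genes. The shares over all levels thus set unlike levels side by side. Psmf1 and Psmg4 lie below this filter. From a mean FPKM of 50 upward, 34 of 34 members and 81.6% of all genes lay within 1.1-fold. Past 1.2-fold were 0 members and 4.55% of all genes. At these levels 14 of 34 members and 47% of all genes were higher with oxalate by any amount. The median absolute log2 ratio was then 0.041 in the members and 0.067 in the 2109 genes. The proteasome genes together held 0.864% of the FPKM sum with PBS and 0.873% with oxalate. Their own summed FPKM was lower with oxalate, 4902.5 with PBS and 4879.92 with oxalate. The sum over all genes listed was lower as well, 567163 and 559026.

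**Figure D1:**
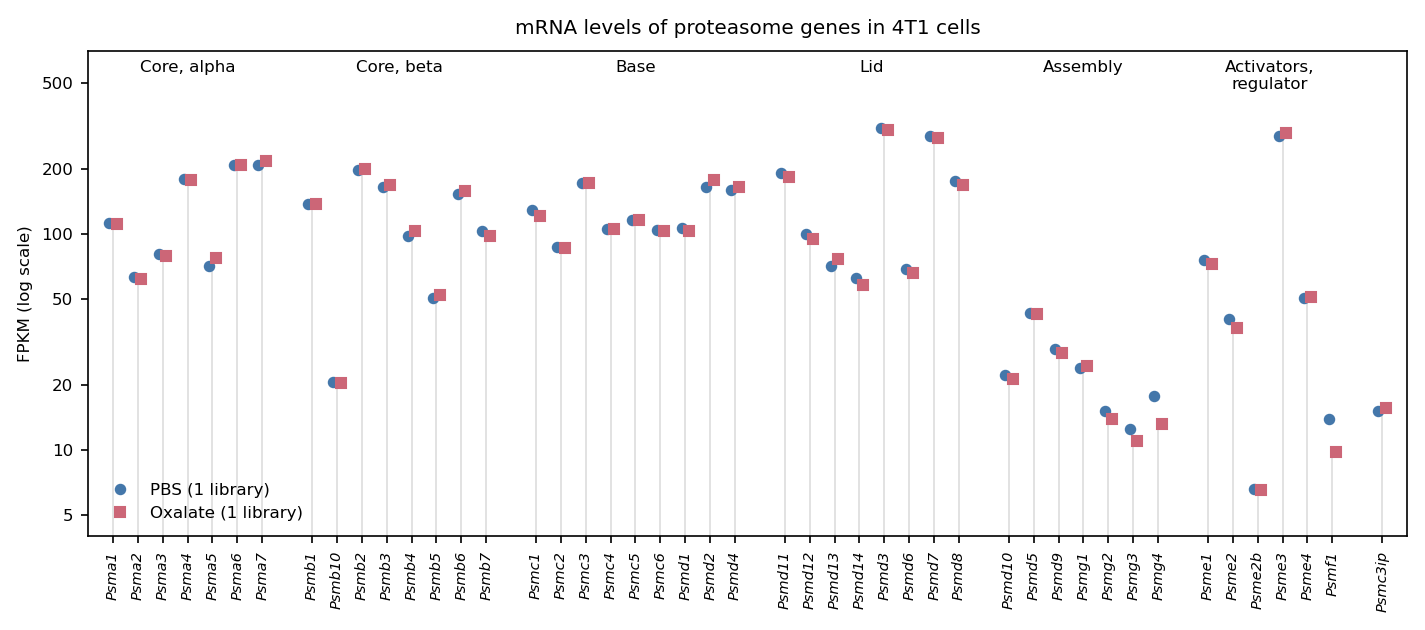
FPKM (vertical axis, log scale) of the 46 expressed members in the PBS library (circles) and the oxalate library (squares), by class along the horizontal axis. The pairs of symbols overlap for nearly every core, base and lid subunit, the assembly factors lie between 10.99 and 42.83 FPKM, and Psmf1 and Psmg4 are the pairs that part most; Psmc3ip stands alone at the right.

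The alpha subunits form the outer rings of the core. Their 7 expressed genes had a median of 112.48 FPKM with PBS and 110.73 with oxalate, with 3 higher and 4 lower. Psma7 had the highest mean level in this class, 207.18 FPKM with PBS and 217.23 with oxalate. Psma2 had the lowest, 63.41 and 61.8 FPKM, so that the levels spread 3.39-fold between genes whose products enter the ring in equal numbers. Psma5 (ENSMUSG00000068749, chromosome 3, 108256926 to 108279974 on GRCm38) had 70.79 FPKM with PBS and 77.18 with oxalate. Its log2 ratio of 0.12 was the highest of all members, a difference of 1.09-fold. Psma8, which replaces Psma7 in germ cells of the testis, was the alpha gene listed at 0.

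The beta subunits form the inner rings, and Psmb5, Psmb6 and Psmb7 carry the chymotrypsin-like, caspase-like and trypsin-like cutting sites. Psmb5 (ENSMUSG00000022193, chromosome 14, 54614119 to 54618022) had 50.36 FPKM with PBS and 52.16 with oxalate. Psmb6 (ENSMUSG00000018286, chromosome 11, 70525367 to 70527858) had 153.25 and 158.07 FPKM. Psmb7 (ENSMUSG00000026750, chromosome 2, 38588036 to 38644087) had 103.01 and 97.73 FPKM. The catalytic genes therefore stood in the same order in both libraries, with Psmb6 3.04 and 3.03 times Psmb5 and Psmb7 2.05 and 1.87 times Psmb5. Their log2 ratios were 0.050, 0.044 and -0.075, all within 1.2-fold. Psmb10 (ENSMUSG00000031897, chromosome 8, 105935735 to 105938444), which replaces Psmb7 in the interferon-inducible form of the core, had 20.68 and 20.37 FPKM. Psmb10 made up 16.7% of the summed Psmb7 and Psmb10 FPKM with PBS and 17.2% with oxalate. The other beta genes, Psmb1 to Psmb4, lay between 97.64 and 199.79 FPKM, with Psmb2 highest. Psmb11, the counterpart of Psmb5 in the thymic cortex, was listed at 0. Of the 8 expressed beta genes 5 were higher and 3 lower. Summed over the rings, alpha FPKM was 1.02 times the beta FPKM without Psmb10 in both libraries. With the GC trend of all genes taken away, the median log2 ratio of the alpha genes turned from -0.0048 to 0.028 and that of the beta genes from 0.025 to -0.0017.

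The base holds the ATPases Psmc1 to Psmc6 and the scaffold or receptor subunits Psmd1, Psmd2 and Psmd4. It was the most even class in level, and the mean levels of its 9 genes lay within a range of about 2-fold, from Psmc2 (86.71 FPKM with PBS and 85.61 with oxalate) to Psmc3 (172.65 and 171.15). The ATPases lay between log2 ratios of -0.094 and 0.0037. The lowest was that of Psmc1, 129.14 FPKM with PBS and 120.9 with oxalate, a log2 ratio of -0.094. Psmd2 (ENSMUSG00000006998, chromosome 16, 20651652 to 20663414), a scaffold of the base and a docking site for ubiquitin-like domains, had 164.41 and 177.34 FPKM. Its log2 ratio of 0.11 was the second highest of all members. Psmd4, a ubiquitin receptor, had 159.26 and 164.33 FPKM, and Psmd1 had 106.07 and 103.32.

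The lid contains Psmd14, the enzyme that cuts ubiquitin chains off the substrate, and structural subunits. Of its 8 genes 7 were lower with oxalate and 1, Psmd13, was higher (71.28 and 76.18 FPKM). Among all genes compared 49% were lower, and from a mean FPKM of 50 upward 1116 of 2109 were. With 8 genes and 1 library per condition, this count does not settle a direction for the lid. The median log2 ratio was -0.060, and none of the genes was past 1.2-fold. Psmd14 had the lowest level, 62.65 FPKM with PBS and 57.87 with oxalate, and the lowest log2 ratio of the lid, -0.11. Psmd3 (ENSMUSG00000017221, chromosome 11, 98682554 to 98695979) had the highest level of all members, 310.1 and 300.91 FPKM, a log2 ratio of -0.043. Psmd7, the catalytically inactive partner of Psmd14, was second in the lid at 283.02 and 278.44 FPKM. The partners Psmd7 and Psmd14 thus differed more from each other in level than either did between the libraries.

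The assembly factors were expressed at a fraction of the level of the subunits. Their 7 genes had a median of 22.13 FPKM with PBS and 21.25 with oxalate, against 115.57 and 115.87 for the 31 core, base and lid genes without Psmb10. The base chaperones Psmd5, Psmd9 and Psmd10 had log2 ratios from -0.056 to -0.00033. The core chaperones work as the pairs Psmg1 with Psmg2 and Psmg3 with Psmg4. Psmg1 had 23.95 FPKM with PBS and 24.56 with oxalate, and Psmg2 had 15.22 and 13.98. Psmg3 had 12.49 and 10.99 FPKM, a log2 ratio of -0.17, with an estimated 573 and 323 reads. Psmg4 (ENSMUSG00000071451, chromosome 13, 34162964 to 34178173) had 17.74 FPKM with PBS and 13.27 with oxalate, a log2 ratio of -0.39. It was the second most lowered member. The estimated reads were 518 and 249. Without a pseudocount, counting error (exact, Clopper-Pearson, 95%) placed its log2 ratio between -0.64 and -0.19. The bounds for Psmg3 were -0.39 and 0.013 and include no difference, so at this depth its log2 ratio lay within counting error. These intervals cover counting error only and not the spread between cultures.

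The activators are caps that open the core in place of the regulatory particle. Psme3, which encodes a cap of the nucleus, had 284.97 FPKM with PBS and 292.57 with oxalate, the highest level of this class and 3.77 and 4.04 times that of Psme1. Psme1 and Psme2, which encode the interferon-inducible cap of the cytoplasm, had 75.66 and 72.5 FPKM and 40.55 and 36.89 FPKM. Psme4, a cap linked to histone turnover, had 50.53 and 51.06 FPKM. Each of these was within 1.2-fold. Psme2b had 6.59 and 6.55 FPKM, and its value is uncertain, as is that of Psme2, because their longest annotated coding transcripts are identical at 789 of 794 aligned bases.

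Psmf1 (ENSMUSG00000032869, chromosome 2, 151715812 to 151744186), which encodes the proteasome regulator PI31, had the largest difference of all members. It had 13.98 FPKM with PBS and 9.82 with oxalate, a log2 ratio of -0.47. The estimated reads were 2061 and 929. Without a pseudocount its log2 ratio was -0.51, with a counting interval from -0.62 to -0.40. Both Psmf1 and Psmg4 are genes with 2 coding transcripts and neither overlaps another listed gene. How reads were shared between the transcripts was not tested. No gene of the core, base or lid came near these differences, the range of all 32 being -0.11 to 0.12.

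The 95% counting interval left out no difference in 18 of 46 members, or 39.1%, against 48.7% of all genes for which reads could be estimated. The interval narrows with more reads. From a mean FPKM of 50 upward, it left out no difference in 15 of 34 members and in 1395 of 2109 genes. All genes of the lid and base lie above that level. In the lid the interval did so in 6 of 8 genes and in the base in 4 of 9. In the alpha and beta classes it did so in 2 each, in the assembly class in Psmg4 alone, and in the activators in 3 of 6.

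**Figure D2:**
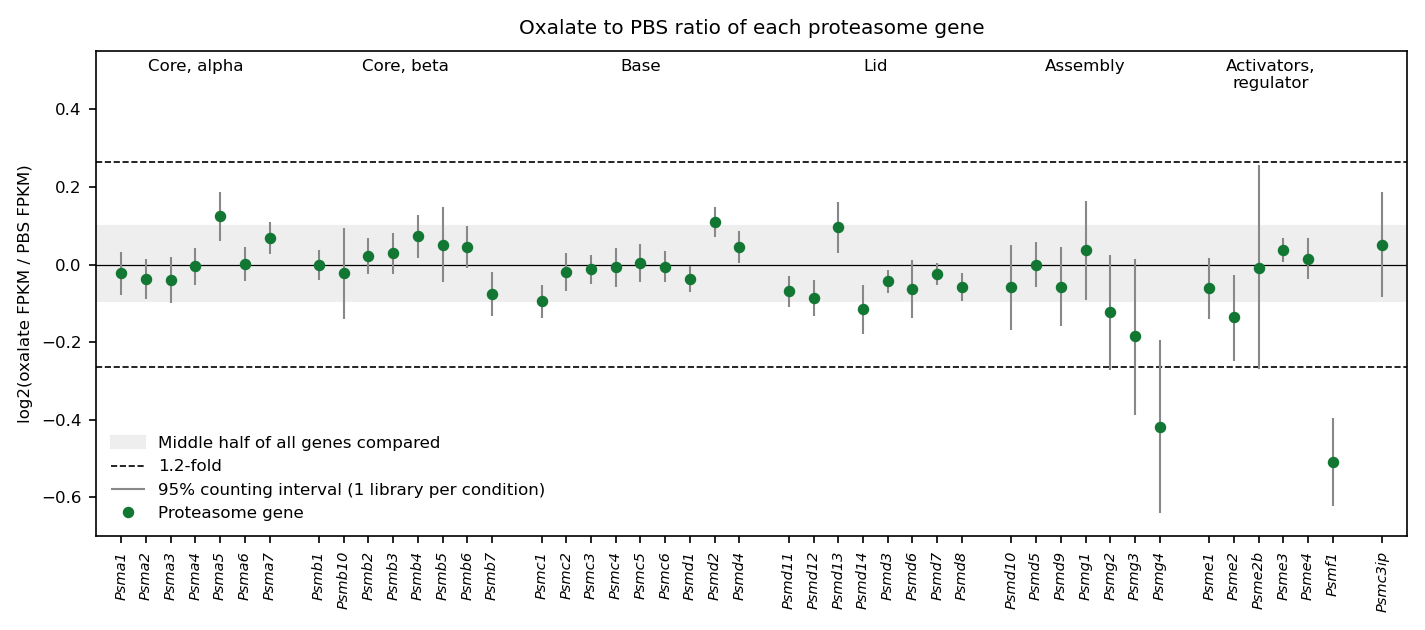
Log2 of the oxalate to PBS FPKM ratio without a pseudocount (vertical axis) for each of the 46 expressed members, with bars for the 95% counting interval, the grey band for the interquartile range of all genes compared and dashed lines at 1.2-fold. Psmf1 and Psmg4 are the points below the lower line, and the lid genes except Psmd13 lie below 0.

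**Figure D3:**
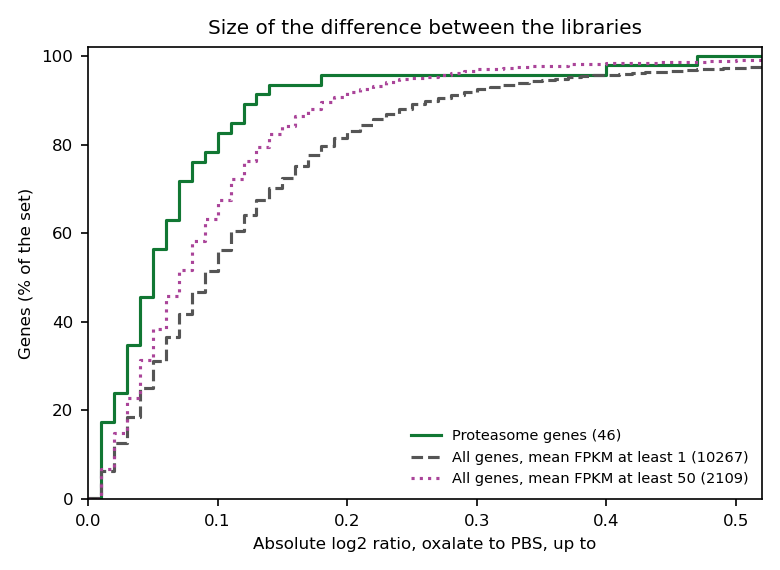
Percent of genes (vertical axis) whose absolute log2 ratio is at most the value on the horizontal axis, for the 46 expressed members, all 10267 genes compared and the 2109 genes whose mean FPKM reached 50. From 0.01 on, the curve of the proteasome genes lies above that of all 10267 genes. It lies below that of the 2109 genes from 0.27 to 0.46, a stretch that ends where Psmf1 is counted.

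The order of the members by level was nearly the same in both libraries, with a Spearman rho of 0.997 across the 46 genes and 0.993 across all 10267, as a description of values that share a library each. Members with a higher level had smaller absolute log2 ratios (rho -0.311), as did genes in general (rho -0.198).

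Of 10 further genes of the proteasome whose names do not follow the pattern, 9 were listed and passed the filter. Pomp, the chaperone that matures the core, had 32.81 FPKM with PBS and 31.19 with oxalate. Adrm1, a ubiquitin receptor of the base, had 163.99 and 156.03 FPKM, and Sem1, a small lid subunit, had 49.18 and 45.76. These genes lay within 1.2-fold, like most members. Akirin2, which brings proteasomes into the nucleus and is named here after its values were seen, had 17.07 and 21.8 FPKM. Its log2 ratio was 0.34, and the counting interval of the ratio without a pseudocount ran from 0.24 to 0.47. The list had 4 genes higher and 5 lower, with a median log2 ratio of -0.016.

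Nfe2l1, the activator of subunit genes, had 26.25 FPKM with PBS and 25.87 with oxalate, and Nfe2l2, its relative in the antioxidant response, had 73.43 and 76.83. Of the 8 genes of this regulatory list, which also held Ddi2 and Ngly1, needed to process NFE2L1, the small MAF partners and Keap1, 2 were higher and 6 lower. The median was -0.028 and none was past 1.2-fold. NFE2L1 and NFE2L2 are known to bind the antioxidant response element with a small MAF partner. Its core, TGACNNNGC, was searched on both strands in RefSeq promoters of GRCm38.p6. These were taken from 250 bases before to 50 bases after a RefSeq start, which can differ from the GENCODE bounds of the gene. A promoter was found for 40 of the 48 members. The core was present in 6 of them, or 15%, against 14.0% of all 27025 genes with a promoter and 17.1% of the 8158 that passed the level filter. The 6 genes were Psmb5, Psmb6, Psmc6, Psmd9, Psmd12 and Psme4. CCAAT was present in 14 of 40 members, or 35%, against 41.1% of all genes. The letters GAAA, any 2 bases and GAAA again form a core of the interferon-stimulated response element. This core was present in 5 of 40, or 12.5%, against 3.99% of all genes. The 5 were Psmb3, Psmd4, Psmd9, Psme1 and Psmg4, and a difference resting on so few genes was not tested. Past the level filter, CCAAT was present in 13 of 39 members against 43.5% of genes. The interferon core was then present in 5 of 39 members against 3.42% of genes. The 250 bases before the start are shown for both catalytic genes with the antioxidant core, which is in capitals. They are also shown for the 2 members past 1.2-fold, which do not hold it there. For Psmf1 the RefSeq start used falls inside the gene bounds given above. The stretch shown is thus not the one before the outer end of the annotated gene. Psmb5 is at chr14:54617996-54618245 (minus strand), Psmb6 at chr11:70525107-70525356 (plus strand), Psmf1 at chr2:151741311-151741560 (minus strand) and Psmg4 at chr13:34162714-34162963 (plus strand), all written 5′ to 3′ in the direction of the gene.
Psmb5: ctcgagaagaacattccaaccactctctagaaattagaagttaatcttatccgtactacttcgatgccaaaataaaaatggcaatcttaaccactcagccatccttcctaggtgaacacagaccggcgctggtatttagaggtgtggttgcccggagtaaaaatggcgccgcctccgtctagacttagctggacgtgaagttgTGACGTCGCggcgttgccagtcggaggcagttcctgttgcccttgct
Psmb6: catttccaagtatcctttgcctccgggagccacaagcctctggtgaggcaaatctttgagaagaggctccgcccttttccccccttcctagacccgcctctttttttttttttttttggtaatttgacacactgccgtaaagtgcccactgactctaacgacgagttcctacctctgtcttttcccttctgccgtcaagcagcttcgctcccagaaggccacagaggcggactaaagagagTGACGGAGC
Psmf1: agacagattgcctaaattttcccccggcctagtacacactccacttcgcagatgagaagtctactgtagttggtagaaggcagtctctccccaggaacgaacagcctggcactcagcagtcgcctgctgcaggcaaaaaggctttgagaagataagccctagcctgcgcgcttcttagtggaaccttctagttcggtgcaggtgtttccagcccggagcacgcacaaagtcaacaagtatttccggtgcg
Psmg4: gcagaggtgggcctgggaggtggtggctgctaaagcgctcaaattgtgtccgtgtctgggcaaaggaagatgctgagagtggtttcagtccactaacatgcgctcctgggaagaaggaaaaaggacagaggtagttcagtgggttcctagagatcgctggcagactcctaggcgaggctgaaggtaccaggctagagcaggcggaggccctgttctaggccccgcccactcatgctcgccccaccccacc

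In Psmb5 the antioxidant core lies 47 to 39 bases before the start, and in Psmb6 9 to 1 bases before it. Neither gene differed by 1.2-fold between the PBS and oxalate libraries, as given with the catalytic subunits. In Psmg4 the interferon core lies 16 to 25 bases after the start and is outside the stretch shown. Such matches describe letters and not bound sites.

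Genes of the interferon-gamma response were followed beside Psmb10, Psme1 and Psme2, which belong to the inducible set. Of the 12 genes 8 passed the filter, with 2 higher and 6 lower and a median log2 ratio of -0.016. Past 1.2-fold were Irf1, at 27.92 and 36.23 FPKM, and Ifngr1, a receptor chain, at 13.2 and 9.79, both named after their values were seen. They stood on opposite sides, and none of the 3 inducible members was past 1.2-fold.

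The genes that supply ubiquitin and carry substrates to the proteasome were also level. The 6 ubiquitin and ubiquitin-activating genes had log2 ratios between -0.065 and 0.064, among them Ubb with 774.12 FPKM with PBS and 772.21 with oxalate. The 8 expressed shuttle genes, such as Vcp (139.77 and 139.01 FPKM), had a median of 0.018 and lay between -0.048 and 0.15.

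Other large complexes were set beside the proteasome, since the lid shares its architecture with the COP9 signalosome and the translation factor eIF3, and the CCT chaperonin is another ring of unlike subunits. The median absolute log2 ratio was 0.043 in the 31 core, base and lid genes without Psmb10, and 0.065 in the 8 lid genes alone. It was 0.031 in the 9 COP9 genes, 0.055 in the 13 eIF3 genes and 0.048 in the 7 CCT genes. Beside these stand 0.087 in all genes and 0.067 in those with a mean FPKM of at least 50. Not every COP9 and eIF3 gene reached that level. No gene of these complexes was past 1.2-fold, the most distant being Eif3j1 at 25.51 FPKM with PBS and 21.26 with oxalate. The median level was 115.57 FPKM with PBS in the proteasome subunits, 79.67 in the COP9 signalosome, 167.25 in eIF3 and 323.94 in CCT. With 1 library per condition, these differences between complexes were not tested.

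**Figure D4:**
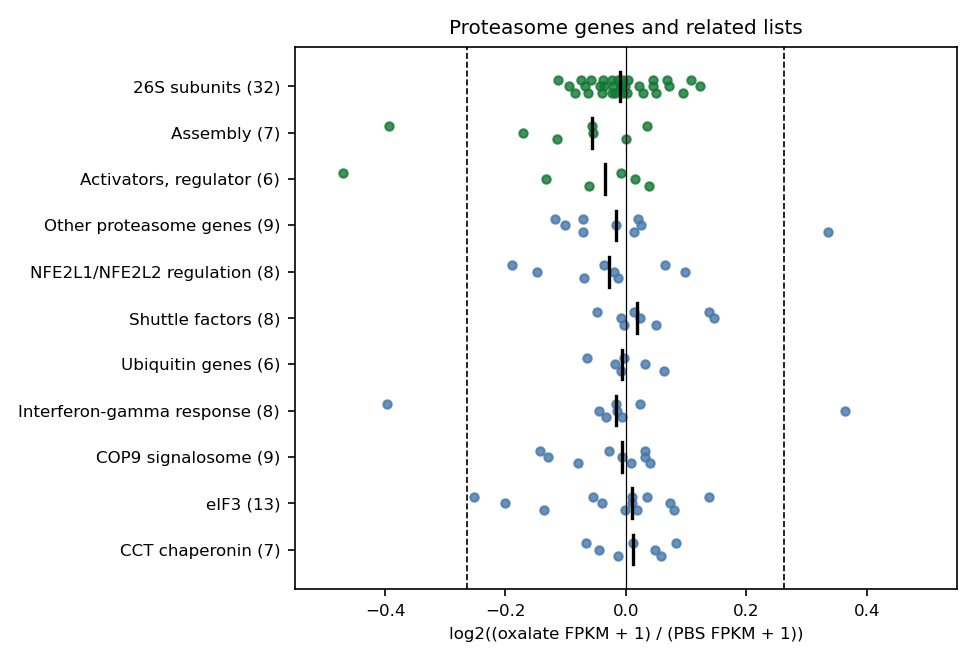
Log2((oxalate FPKM + 1)/(PBS FPKM + 1)) on the horizontal axis for each expressed gene (points) of the proteasome classes (top) and of the related lists (below), with the median of each list as a black bar, dashed lines at 1.2-fold and the number of genes in parentheses. The points beyond the dashed lines are Psmg4, Psmf1, Akirin2, Ifngr1 and Irf1.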

How the data were processed

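The mRNA of 4T1 cells was measured in 2 libraries, 1 after 48 h with PBS and 1 after potassium oxalate. The authors enriched polyadenylated RNA and deposited FPKM values rounded to 2 decimals; the submitters' processing notes name Bowtie2 2.2.8 and TopHat2 2.1.1, while the quantifier, genome build and annotation are not given in the sources used here. Symbols, coordinates (GRCm38), transcript lengths and GC content were taken from GENCODE M21, in which 21848 of 21911 identifiers were found.

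Log2 ratios used a pseudocount of 1 and a minimum mean FPKM of 1. A gene counted as past a threshold at 1.2-fold, with 1.5-fold and 2-fold as alternatives. No test was run across 2 single libraries. FPKM times transcript length of genes with 1 transcript moved in steps of 0.0176 for PBS (107 genes) and 0.0275 for oxalate (90 genes), from which reads were estimated with the mean length of the coding transcripts. An exact 95% interval of each ratio covers counting error of these estimated reads only. The lengths need not be those the authors used. Scripts were tested on simulated data.

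Named were members past 1.2-fold, the highest and lowest level in each class, the 2 highest and 2 lowest log2 ratios, the catalytic subunits Psmb5, Psmb6 and Psmb7 with Psmb10, members under a mean FPKM of 1, related genes past 1.5-fold, and Nfe2l1, Nfe2l2, Pomp, Adrm1 and Sem1. Other genes are given as examples of their class or list. The members and lists were chosen with earlier results of these data known. Values were computed with pandas 2.3.3 and numpy 2.4.6 in Python 3.11.15, intervals with scipy 1.17.1, alignments with biopython 1.88 and plots with matplotlib 3.10.9.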

Additional observations from a re-analysis of the deposited data

How the results depend on the processing

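No paired analysis was possible because only 1 library stands for PBS and 1 for oxalate, nor could any replicate be left out. The 2 proteasome genes past 1.2-fold became 0 at 1.5-fold, 0 at 2-fold and, with a filter chosen after the values were seen, 0 at a mean FPKM of at least 50, since Psmf1 and Psmg4 lie below that level. They stayed 2 with a pseudocount of 0.1 or 0.001, over all genes listed, at a mean FPKM of at least 5, after rescaling and after the median of the GC decile was taken away. The share of the FPKM sum became 0.984% with PBS and 0.992% with oxalate when the 10 highest genes were left out of the sum. The median log2 ratio of all members stayed between -0.018 and -0.0064. Taking away the GC trend turned the alpha median from -0.0048 to 0.028 and the beta median from 0.025 to -0.0017, so that neither class has a settled direction; the cause was not tested. The lid, base, assembly and activator medians stayed below 0 after rescaling and after the GC trend was taken away. The filters run on these classes left their medians unchanged, and a pseudocount cannot change the sign of a ratio. Every run used the same 2 libraries, so the runs do not settle a direction for these classes. The base median was -0.0075, beside a median counting interval of 0.042 to either side. Of 144 values of 24 named genes 1 moved by more than its counting interval, that of Psma2 with the GC trend taken away (-0.037 to 0.031). Depth limits the assembly factors most, whose median interval was 0.13 to either side on the log2 scale, against 0.054 for all members.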

Other observations

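The members lie on 16 chromosomes, with 10 of them on chromosome 11. Psmb5 and Psmb11, divergent genes 3.4 kb apart on chromosome 14, had 50.36 FPKM with PBS and a listed 0. Psme1 and Psme2, convergent genes 5.9 kb apart on the same chromosome, had log2 ratios of -0.061 and -0.13. Psmb4 and Psmd4, 145.7 kb apart on chromosome 3, had log2 ratios of 0.072 and 0.045.

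Of the members 12 overlap another listed gene, 3 of them on the same strand. Psmc3 (172.65 FPKM with PBS) overlaps Slc39a13 (68.72 FPKM) and Psmb7 overlaps Nek6 (15.57 FPKM) on the other strand, and Psma2 overlaps AW209491 (11.02 FPKM) on its own. Whether counting used strand is not given in the sources used here, so reads of such pairs cannot be told apart.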
